A study of Caenorhabditis elegans with 48 samples.

Results

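The comparison of 24 h with 12 h of starvation covers the later part of the first day of L1 arrest. It used 8 of the 48 libraries of an mRNA-seq time series: 4 libraries at 24 h and 4 at 12 h, chosen by the time point in their labels and paired by the replicate numbers 1, 5, 6 and 8. Each library came from whole L1 larvae of N2, the wild-type strain of Caenorhabditis elegans. Embryos were freed by hypochlorite and left to hatch in S-basal, a buffer without food, so the larvae of both time points had been starved from hatching and by their labels differ only in time. Time is counted from when larvae began to hatch. The whole animal was sequenced, so fewer cells of a type and less RNA per cell cannot be told apart. By the study's methods, all time points of 3 replicates were drawn from 1 culture per replicate and those of the other replicate from several cultures, without saying which number that was.

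The 24 h libraries held 8507600 to 11941937 reads counted on genes other than rRNA, and the 12 h libraries held 12124906 to 14005197. The rRNA share was 29.2% in replicate 8 at 24 h, 2.47% to 9.89% in the other 24 h libraries, and 1.37% to 4.52% at 12 h. The 22 rRNA entries were therefore left out of all totals. Levels are given in counts scaled to a common library total (CPM), with TMM factors between libraries. They are not corrected for transcript length and are compared between times, within a gene or within the sum of a list. Sums and rankings by change in CPM give most weight to genes with many reads. Every pair of libraries of a time point differed by more than counting noise.

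L1 arrest is a developmental standstill entered by larvae that hatch without food. Somatic blast cells and the primordial germ cells do not divide, the animal lives on stores laid down in the egg, and development resumes on feeding. Insulin-like signalling through the DAF-2 receptor and the transcription factor DAF-16 is known to govern the decision between arrest and growth.

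Of 17257 genes tested, 1147 were higher at 24 h (6.65%) and 1292 were lower (7.49%), so that 14.1% changed (edgeR quasi-likelihood test, Benjamini-Hochberg adjusted p under 0.05). These shares include genes with few reads, in which fewer changes can be detected. With only genes averaging at least 10 CPM over the 8 libraries, 1247 of 8243 were higher and 1109 lower. Lists of genes with many reads therefore have a higher background than the shares of all genes given beside them. Most changes were small. Changes of at least 2-fold were found in 3.33% of the tested genes, 166 higher and 408 lower, and over all genes the median was 0.03 on the log2 scale. Of the 2439 genes that changed, 2363 moved the same way in 4 of 4 replicates, against 36.7% of all tested genes. The values at 24 h and 12 h did not overlap for 1711 of them, against 14.9% of all tested genes. Both counts follow in part from the test, which used the same libraries, and are descriptions only. Without scaling factors the median over all genes was -0.08 and the split became 732 higher and 2339 lower, so changes are reported relative to the bulk of the genes.

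**Figure D1:**
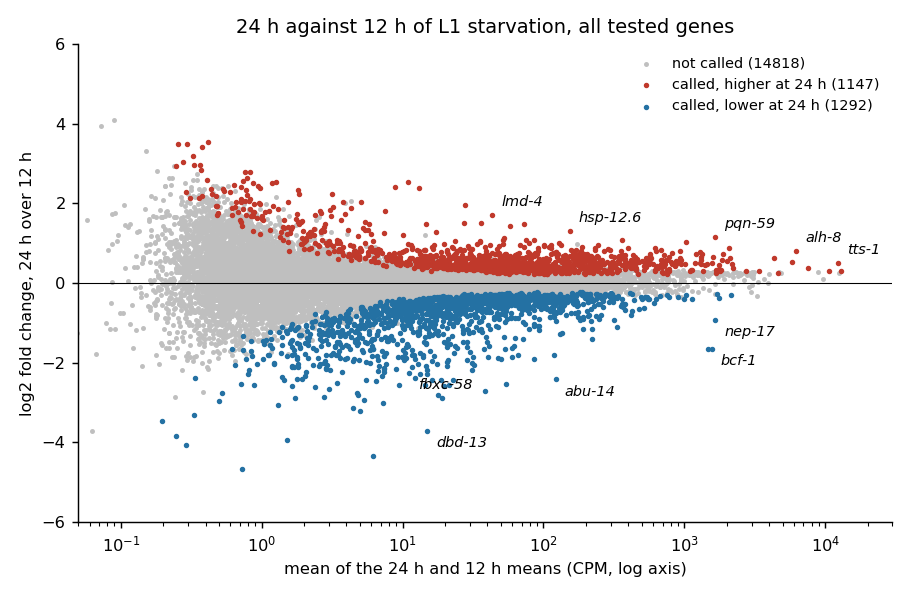
Log2 fold change of 24 h over 12 h (y axis) against the mean level in CPM (log x axis) for each of the 17257 tested genes. Red points are the 1147 genes called higher at 24 h, blue points the 1292 called lower, and grey points the 14818 not called; among named genes above 10 CPM, dbd-13 lies lowest at -3.70 and lmd-4 highest at 1.71.

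Genes are named as large rises or falls where they averaged at least 10 CPM and moved the same way in 4 of 4 replicates. The largest rise was that of lmd-4, which encodes a protein with a LysM domain. It had 41.3, 82.1, 75.6 and 67.5 CPM at 24 h in replicates 1, 5, 6 and 8, against 19.4, 14.7, 26.2 and 21.01 CPM at 12 h. All 24 h libraries stood above all 12 h libraries, with a log2 fold change of 1.71 ± 0.20 (n = 4 pairs, edgeR adjusted p = 1.2e-08). Here and below the SE comes from the fit of all 48 libraries and is not the spread of the 4 pairs. The small heat shock protein gene hsp-12.6 had 217, 192, 202 and 261 CPM at 24 h, against 128, 55.1, 69.2 and 105 CPM at 12 h. Its groups did not overlap and its log2 fold change was 1.31 ± 0.22 (edgeR adjusted p = 1.2e-05). The related gene hsp-12.3 rose by 1.51 ± 0.26 on the log2 scale. For ech-7, which encodes an enoyl-CoA hydratase of fatty acid breakdown, the values were 125, 96.96, 76.5 and 131 CPM at 24 h and 43.9, 35.1, 28.99 and 46.3 CPM at 12 h. This was a rise of 1.47 ± 0.19 (edgeR adjusted p = 1.9e-07).

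The stearoyl-CoA desaturase gene fat-6 had 1012, 1183, 1965 and 1388 CPM at 24 h, against 517, 616, 980 and 619 CPM at 12 h. Replicate 6 was the highest at both times, and the log2 fold change was 1.02 ± 0.13 (edgeR adjusted p = 8.6e-08). The prion-like gene pqn-59 had 2081 to 2399 CPM at 24 h and 942 to 1085 CPM at 12 h, and its adjusted p of 1.4e-11 (edgeR) was the smallest of the named genes. The cuticle collagen gene dpy-5 rose by 1.50 ± 0.32, but its values overlapped, with 38.6, 71.3, 9.16 and 44.3 CPM at 24 h and 21.3, 17.99, 5.74 and 9.801 CPM at 12 h. The other large rises were hrg-1, a haem transporter gene (1.13), cpg-18, a chondroitin proteoglycan gene (1.28), dao-6 (1.08), the acid phosphatase gene pho-6 (1.05) and the metallothionein gene mtl-2 (0.99).

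The largest falls included genes of the pharyngeal cuticle, the lining of the feeding organ. The gene dbd-13 had 2.54, 0.964, 2.60 and 2.41 CPM at 24 h, against 39.1, 13.6, 38.6 and 20.3 CPM at 12 h. The groups were far apart, and the log2 fold change was -3.70 ± 0.34 (edgeR adjusted p = 1.1e-10). The abu genes encode low-complexity proteins of the pharyngeal cuticle. For abu-14 the values were 62.8, 17.5, 48.8 and 22.1 CPM at 24 h and 271, 129, 323 and 101 CPM at 12 h, a log2 fold change of -2.42 ± 0.27 (edgeR adjusted p = 5.2e-09). In both groups replicates 1 and 6 were above replicates 5 and 8. Replicates 1 and 6 were also the higher ones in phat-2, a gene of the pharyngeal glands, with 7.24, 1.14, 4.22 and 2.79 CPM at 24 h and 22.5, 13.5, 35.2 and 11.1 CPM at 12 h.

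Families were also grouped by the prefix of their gene symbols, after the values had been seen, so their counts are descriptions. Of 328 prefixes with at least 6 tested genes, 24 had at least 40% of their members called. Among 10 tested abu genes, 5 fell (50%, against 7.49% of all genes) and none rose. All 5 (abu-7, abu-8, abu-10, abu-11 and abu-14) changed by more than 2 on the log2 scale, from -2.13 to -2.88. The summed level of the 10 genes was 60.2 ± 29.6 CPM at 24 h and 314 ± 162 CPM at 12 h (SD, n = 4 each). Of 7 idpc genes, which encode intrinsically disordered cuticle proteins, 4 fell (57.1%) and none rose, and idpc-2 was among the 4. The 8 phat genes split, with phat-1, phat-2, phat-4 and phat-5 lower and phat-3, phat-7 and phat-8 higher. Several of these genes are close relatives. Under the study's alignment settings, reads shared between copies could be assigned to either, or dropped where more than 2 places matched.

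**Figure D2:**
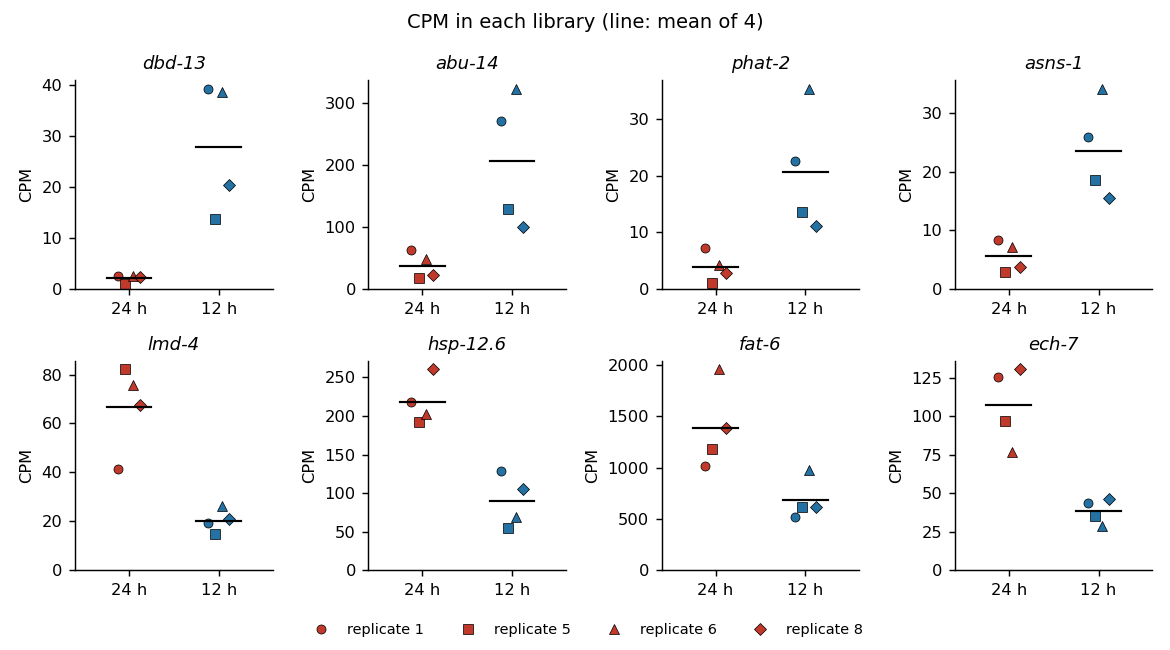
CPM (y axis, from 0) of 4 genes that fell and 4 that rose, in each library at 24 h (red, left) and 12 h (blue, right). Point shapes are the replicates 1, 5, 6 and 8 and lines are means of 4; at 12 h, dbd-13, abu-14, phat-2 and asns-1 are higher in replicates 1 and 6 than in 5 and 8.

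Other large falls were in asns-1, which encodes asparagine synthetase, fbxc-58, chtb-3 and dpy-14. The gene asns-1 had 8.31, 2.89, 7.18 and 3.81 CPM at 24 h, against 25.97, 18.7, 34.2 and 15.5 CPM at 12 h, a log2 fold change of -2.08 ± 0.28 (edgeR adjusted p = 2.3e-07). By change in CPM the largest losses were in bcf-1 (-1.65 ± 0.16) and its near relative gfi-1 (-1.65 ± 0.16). The gene bcf-1 had 562, 792, 879 and 818 CPM at 24 h, against 2227, 2582, 2678 and 1976 CPM at 12 h. The 2 genes are near copies with nearly equal values. Under the study's alignment settings a read that matched both was reported at either place but not at both. The share of such reads is not known, and both genes are reported as uncertain. The neprilysin-like peptidase gene nep-17 had 1017 to 1212 CPM at 24 h and 1863 to 2798 CPM at 12 h. The ATP synthase subunit gene atp-1 and the sodium pump gene eat-6 fell by 0.37 and 0.30 on the log2 scale.

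The largest gains in CPM were in tts-1, a non-coding RNA, and in alh-8, eef-1A.1, eef-2 and gdh-1. The RNA tts-1 had 12242, 13753, 15543 and 16412 CPM at 24 h, against 9405, 10168, 9722 and 11223 CPM at 12 h. The groups did not overlap (log2 fold change 0.51 ± 0.15, edgeR adjusted p = 0.012). For alh-8, a methylmalonate semialdehyde dehydrogenase gene, the values were 7438 to 8209 CPM at 24 h and 4117 to 5224 CPM at 12 h (0.81 ± 0.10). The glutamate dehydrogenase gene gdh-1 rose by 0.52 ± 0.09.

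Many genes of 1 class of neuropeptides rose, and other peptide lists leaned the same way by less. FMRFamide-like neuropeptides are short secreted signals processed from flp precursors. Of 30 tested flp genes 20 rose (66.7%, against 6.65% of all genes) and none fell. Positive fold changes were found in 29, with a median log2 fold change of 0.40 against 0.03 over all genes. The largest was flp-27, with 126, 133, 167 and 144 CPM at 24 h, against 76.1, 62.4, 86.2 and 79.7 CPM at 12 h. The groups did not overlap (0.91 ± 0.10, edgeR adjusted p = 1.2e-08). The genes flp-32 and flp-2 rose by 0.68 and 0.57, and the only negative value was -0.10, for flp-8. The processing enzymes egl-3, a proprotein convertase, and egl-21, a carboxypeptidase, rose by 0.44 and 0.48. The count of flp genes fell to 9 without the replicate block, and it was 11 to 17 when a replicate was left out, with no flp gene lower in any of these fits.

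In other peptide lists most members did not pass the test. Of 85 neuropeptide-like genes 13 rose (15.3%), 3 fell and 69 were not called, and of 25 insulin-like peptide genes 4 rose (16%) and none fell. Both shares of rises stood above the 6.65% of all genes. They were of like size to that among genes of at least 10 CPM, where 1247 of 8243 rose. Positive fold changes were found in 58 of the 85 and 22 of the 25, with medians of 0.21 and 0.28. The count of insulin-like genes was 1 without the replicate block and 1 to 3 when a replicate was left out, and that of neuropeptide-like genes that rose was 5 and 7 to 9. The insulin-like genes were daf-28, ins-18, ins-30 and ins-35, at 0.54, 0.40, 0.64 and 0.55. The files hold 40 of the family, and the others were below the level filter. The daf-7 ligand gene of the TGF-beta pathway had 152, 148, 165 and 179 CPM at 24 h and 98.3, 118.7, 107 and 118.7 CPM at 12 h. The groups did not overlap, and it was the only called member of 22 in the TGF-beta and dauer list (0.53 ± 0.16). Of 8 neuronal markers only egl-21 was called, 6 had a negative fold change and the median was -0.12. Their summed level was 2334 to 2658 CPM at 24 h and 1898 to 2127 CPM at 12 h, of which egl-21 made 1617 to 1845 CPM at 24 h and 1120 to 1306 CPM at 12 h, and the part of neuron number or RNA content in these rises was not tested.

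Genes of protein synthesis and folding moved both ways, and some lists had more rises than falls. Of 40 translation factors 12 rose and 4 fell (30% and 10%, against 6.65% and 7.49% of all genes). Among them eif-3.B rose by 0.60 ± 0.08 and eif-2gamma by 0.59 ± 0.08. Of 34 aminoacyl-tRNA synthetases, which load amino acids onto tRNA, 10 rose (29.4%) and 2 fell (5.88%). The cysteine enzyme cars-1 had 348, 332, 314 and 370 CPM at 24 h, against 217, 191, 169 and 205 CPM at 12 h (0.81 ± 0.07, edgeR adjusted p = 4.5e-11), and nars-1 moved the other way (-0.90 ± 0.11). All 64 tested cytosolic ribosomal protein genes had a positive fold change, with a median of 0.25. Only 6 passed the test (9.375%), among them rps-20 (0.33) and rpl-12 (0.31). None of the 64 passed without the replicate block, or without replicate 1, 6 or 8, while 34 passed with upper-quartile scaling and 60 with the 8 libraries fitted alone. Of 64 mitochondrial ribosomal genes 10 rose (15.6%) and none fell, though their median was 0.00.

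Among 52 cytosolic chaperone genes 13 rose (25%, against 6.65% of all genes) and 4 fell (7.69%, against 7.49%). The CCT chaperonin, a ring-shaped complex that folds actin and tubulin, had 7 of its 8 tested genes higher (87.5%). This family was chosen after the values had been seen. The exception, cct-8, had -0.18 and was called lower without scaling factors and with the 8 libraries fitted alone. The gene cct-4 had 573, 534, 527 and 549 CPM at 24 h, against 387, 330, 324 and 337 CPM at 12 h (0.67 ± 0.08, edgeR adjusted p = 2.2e-08). The summed level of the 8 genes was 3831 ± 101 CPM at 24 h and 2700 ± 171 CPM at 12 h. The chaperone gene hsp-90 had 2557, 2245, 2220 and 2376 CPM at 24 h and 1828, 1238, 1361 and 1267 CPM at 12 h, with replicate 1 the highest at both times. Of 28 secretory pathway genes 5 rose (17.9%) and none fell, led by the calreticulin gene crt-1 (0.54), and the list median was 0.04. Of 33 proteasome subunits 5 rose and none fell, including pas-3 (0.44) and rpn-11 (0.39), but the 15.2% called was near the 14.1% of all genes and the median was 0.04.

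Many body wall muscle genes fell. Of 40 genes of muscle contraction and attachment 20 fell and none rose, with a median log2 fold change of -0.29. The 50% called lower stood beside 7.49% of all genes. The troponin I gene tni-3 had 56.1, 58.3, 59.8 and 64.8 CPM at 24 h, against 107, 136, 138.7 and 124 CPM at 12 h (-1.08 ± 0.15, edgeR adjusted p = 7.9e-07). The groups did not overlap, and the alpha-actinin gene atn-1 fell by 0.81. The actin genes act-3 and act-1 fell by 1.15 and 0.96, but actin genes are nearly identical in sequence and their reads cannot be assigned with certainty. The myosin heavy chain gene unc-54 did not pass the test (0.27 ± 0.17), with 8910 to 10323 CPM at 24 h and 7312 to 8600 CPM at 12 h. The summed level of the list was 34505 ± 1157 CPM at 24 h and 35191 ± 2057 CPM at 12 h. The count of falls was 9 without the replicate block and 10 to 16 when a replicate was left out, and with the 8 libraries fitted alone 25 fell and 4 rose.

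**Figure D3:**
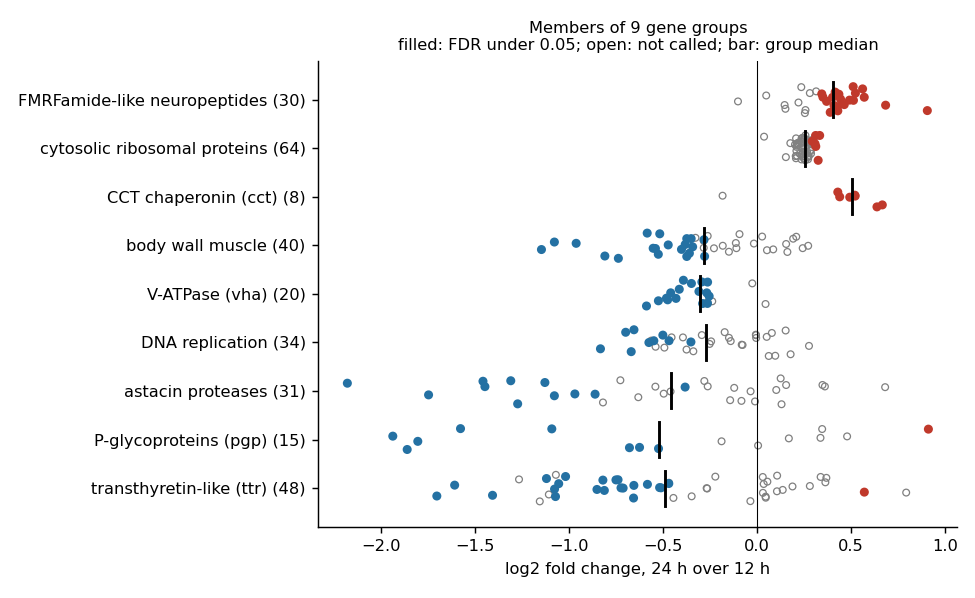
Log2 fold change of 24 h over 12 h (x axis) for each tested member of 9 gene groups (rows, number of members in brackets). Filled points passed the test, red higher and blue lower at 24 h, open points did not, and bars are group medians; 20 of 30 flp genes are filled on the right and 16 of 20 vha genes on the left.

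The vacuolar ATPase, which acidifies lysosomes and is encoded by the vha genes, fell in most of its subunits. Of 20 tested vha genes 16 fell (80%, against 7.49% of all genes) and none rose. This family was chosen after the values had been seen. The gene vha-19 had 197, 186, 251 and 212 CPM at 24 h, against 287, 336, 374 and 276 CPM at 12 h (-0.59 ± 0.09, edgeR adjusted p = 1.4e-06). The genes vha-12, vha-17 and vha-4 fell by 0.53, 0.48 and 0.41. The summed level was 5842 ± 399 CPM at 24 h and 7058 ± 447 CPM at 12 h. The count was 9 without the replicate block and 8 to 12 when a replicate was left out.

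Genes of energy metabolism moved in both directions. Of 18 glycolysis genes 3 rose, namely aldo-2, gpd-3 and gpi-1, and 7 fell (55.6% called, against 14.1% of all genes). The aldolase gene aldo-2 had 2384, 2413, 2739 and 2664 CPM at 24 h, against 1765, 1865, 1884 and 1802 CPM at 12 h (0.48 ± 0.11). The triosephosphate isomerase gene tpi-1 fell by 0.36. Of 28 citric acid cycle genes 7 fell (25%, against 7.49% of all genes) and none rose, with mdh-2 at -0.52 and aco-2 at -0.34. However, 2 to 3 fell when a replicate was left out and 16 without scaling factors. Of 61 genes of beta-oxidation 2 rose and 9 fell. The glyoxylate cycle gene icl-1 had 29.9, 17.6, 22.8 and 17.4 CPM at 24 h, against 70.2, 38.9, 62.3 and 35.5 CPM at 12 h (-1.23 ± 0.20).

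Of 25 genes of fatty acid synthesis and desaturation 6 rose and 2 fell (24% and 8%, against 6.65% and 7.49% of all genes). Besides fat-6, the elongase gene elo-5 had 8.41, 5.08, 4.76 and 5.83 CPM at 24 h and 0.962, 1.75, 1.04 and 2.27 CPM at 12 h (2.02 ± 0.33), while the fatty acid synthase gene fasn-1 fell by 0.84. The lipase genes diverged, with lipl-5 at 0.73 ± 0.13 and lipl-2 at -0.85 ± 0.15. Of 18 vitellogenin and lipid-binding protein genes 5 fell (27.8%) and none rose, and far-8 (-0.85) and lbp-5 (-1.39) were among the 5.

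Cuticle and extracellular matrix lists differed in direction. Of 149 col collagen genes 14 rose and 19 fell, while 86 had a positive fold change and the median was 0.14. The 9.396% called higher stood beside 6.65% of all genes, and the 12.8% called lower beside 7.49%. Their summed level was 3016 to 3560 CPM at 24 h and 3889 to 4505 CPM at 12 h. The count of rises was 1 without the replicate block and 6 to 9 when a replicate was left out. The gene col-80 fell by 1.29. Of 31 astacin metalloproteases, which process extracellular proteins, 11 fell (35.5%) and none rose, and nas-11 (-0.86) and nas-8 (-1.28) were among the 11. The astacin count was 4 without replicate 6 and 6 without replicate 8. Of 79 hedgehog-related and patched-related genes 10 fell and 1 rose, and the 13.9% called was near the 14.1% of all genes. The hedgehog-related gene grl-21 had 1.27, 0.0876, 0.180 and 0.761 CPM at 24 h, against 13.2, 4.95, 20.7 and 8.00 CPM at 12 h (-4.35 ± 0.50, edgeR adjusted p = 1.1e-08). Of 48 transthyretin-like ttr genes, chosen after the values had been seen, 21 fell and 1 rose, with ttr-15 at -1.07 ± 0.17. The share called was 45.8%, against 14.1% of all genes.

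Stress and detoxification genes changed in opposing groups. The share called was 43.75% of small heat shock protein genes and 26.7% of DAF-16-responsive stress genes, against 14.1% of all genes. For cytochrome P450 and UDP-glucuronosyltransferase genes it was 18.1%. Of 16 small heat shock protein genes 4 rose (hsp-12.3, hsp-12.6, hsp-16.20 and hsp-16.21) and 3 fell (hsp-12.1, hsp-12.2 and hsp-25). Of 30 genes of the DAF-16-responsive stress list 3 rose and 5 fell, including dod-19 (-1.61) and the catalase gene ctl-2 (-0.75). Of 144 cytochrome P450 and UDP-glucuronosyltransferase genes 7 rose and 19 fell. The ugt-28 gene fell by 2.13, and cyp-32B1 rose by 0.87. The P-glycoproteins are ATP-driven exporters, a family chosen after the values had been seen. Of 15 pgp genes 8 fell and 1 rose (60% called, against 14.1% of all genes). The gene pgp-5 had 51.1, 18.3, 31.2 and 16.5 CPM at 24 h, against 147, 60.1, 144 and 61.2 CPM at 12 h (-1.81 ± 0.20, edgeR adjusted p = 6.4e-09), again with replicates 1 and 6 the highest.

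In the innate immunity list 4 of 27 genes rose and 8 fell, and the 44.4% called stood beside 14.1% of all genes. The MAP kinase kinase gene sek-1 had 375, 411, 456 and 382 CPM at 24 h, against 277, 270, 299 and 254 CPM at 12 h (0.56 ± 0.08). Its upstream adaptor gene tir-1 fell by 0.75, and the infection response genes irg-1 and irg-2 fell by 1.52 and 2.16. C-type lectins were divided, with 16 higher and 15 lower of 171, and the 18.1% called was not far above the share of all genes.

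DNA replication genes fell in part. Of 34 tested genes 9 fell (26.5%, against 7.49% of all genes) and none rose. The falls included the MCM helicase genes mcm-5 and mcm-6 (-0.67 and -0.47), the ribonucleotide reductase gene rnr-1 (-0.70) and the sliding clamp gene pcn-1 (-0.66). The count was 4 without the replicate block. The summed level of the 34 genes was 764, 630, 654 and 621 CPM at 24 h, against 970, 700, 733 and 733 CPM at 12 h. It was highest in replicate 1 at both times. Of 30 cell cycle genes 8 fell (26.7%) and none rose. The cyclin B gene cyb-3 had 36.2, 10.6, 11.3 and 14.5 CPM at 24 h, against 64.9, 21.6, 37.5 and 35.6 CPM at 12 h (-1.18 ± 0.23). The cell cycle count was 1 without the replicate block and 3 to 6 when a replicate was left out. None of 8 primordial germ cell markers passed the test. Their summed level was 67.2 to 101 CPM at 24 h and 65.8 to 111 CPM at 12 h.

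Further lists differed in the share called. Over all genes 14.1% were called. Near that share were pharyngeal muscle (15.4%), the insulin, AMPK and TOR pathway (15.2%) and amino acid catabolism (16.3%). So were germ granule and Argonaute genes (13.2%) and RNA polymerase II and heterochromatin genes (12.9%). Below it were nuclear hormone receptors (8.50%), F-box A genes (9.66%), autophagy (10%), sensory cilia (7.14%) and the respiratory chain (7.5%). Of 29 ribosome biogenesis genes 5 rose and 4 fell, although their summed level was 6776 ± 146 CPM at 24 h and 4962 ± 200 CPM at 12 h. Of 60 gut protease and saposin genes 8 rose and 9 fell, of 48 glutathione S-transferases 4 rose and 7 fell, and of 25 superoxide dismutase, catalase and peroxiredoxin genes 4 rose and 3 fell. Autophagy had 3 of 30 genes higher and sensory cilia 3 of 42, with none lower in either list. Mitochondrial chaperones had 3 of 17 higher and none lower. Of 43 genes of amino acid catabolism 5 rose and 2 fell, of 38 genes of synaptic transmission 4 rose and 3 fell, and of 23 molting genes 1 rose and 5 fell. The insulin, AMPK and TOR pathway had 2 of 33 genes higher and 3 lower, and the respiratory chain 1 of 40 higher and 2 lower. Of 13 pharyngeal muscle genes 2 fell and none rose, 12 had a negative fold change and the median was -0.20. Of 24 genes of the glyoxylate cycle and sugar stores 3 rose and 6 fell (37.5% called). Among 247 nuclear hormone receptors 12 rose and 9 fell, among 176 F-box A genes 4 rose and 13 fell, among 53 germ granule and Argonaute genes 3 rose and 4 fell, and among 31 RNA polymerase II and heterochromatin genes 2 rose and 2 fell.

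None of the 9 regulators that the study discusses passed the test. The insulin-responsive factor gene daf-16 had 395, 394, 491 and 408 CPM at 24 h, against 361, 466, 445 and 360 CPM at 12 h (0.05 ± 0.11). The others, aak-2, ama-1, cec-4, daf-18, hlh-30, hpl-2, lin-35 and skn-1, ranged from -0.28 for cec-4 to 0.08 for skn-1. The SE of cec-4 was 0.18 and that of skn-1 0.12, so small changes would not have been detectable.

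Tissue markers were checked because other tissues share these RNA samples. Of 6 intestinal markers 3 fell (pho-1, ges-1 and act-5), but their summed level, which includes ifb-2 (0.17, not called), was 2597 to 2874 CPM at 24 h and 2361 to 2738 CPM at 12 h. Of 7 body wall muscle markers 2 fell (tni-3 and lev-11) and none rose, with a median of -0.26. Their summed level, which includes unc-54, was 15621 to 17543 CPM at 24 h and 14492 to 16352 CPM at 12 h, so the sum did not fall with the muscle list. None of 8 hypodermal and none of 5 pharyngeal muscle markers passed. All 5 pharyngeal muscle markers had a negative fold change, with a median of -0.30. The summed level of these 5 was 6070 to 6790 CPM at 24 h and 6472 to 8810 CPM at 12 h. Early embryonic genes were near 0, with summed levels of 5.38 to 8.93 CPM at 24 h and 6.09 to 7.09 CPM at 12 h. The hatching enzyme gene hch-1 had 3.52, 1.05, 0.539 and 0.888 CPM at 24 h and 9.41, 3.05, 5.05 and 2.35 CPM at 12 h, a fall that was not called without the replicate block or without replicate 6 or 8.

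The step from 12 h to 24 h was then set against the step from 0 h to 12 h, both of them 12 h long, in 1 contrast of the same fit. The steps differed for 3896 genes (22.6%). The log2 change was higher in the later step for 1894 of them and lower for 2002, whatever the direction of either step. Of the 5 genes named for a lower later step, 4 rose up to 12 h and fell after it (pgp-5, rop-1, lipl-2 and oac-50). The gene pgp-5 averaged 26.8 ± 5.21 CPM at 0 h, 103 ± 48.9 CPM at 12 h and 29.3 ± 15.9 CPM at 24 h (SD, n = 4 each), and its steps differed by -3.66 ± 0.33 (edgeR adjusted p = 1.3e-11). The Ro RNA-binding protein gene rop-1 and the lipase gene lipl-2 were also highest at 12 h among these 3 times, with differences of -3.24 and -2.84. The linker histone gene hil-1 averaged 54.8 CPM at 0 h, 430 CPM at 12 h and 395 CPM at 24 h, and its later step did not pass the test.

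The 5 genes named for a higher later step had all fallen from 0 h to 12 h. After 12 h, act-5 and gmap-1 fell further by less, ctsa-3.1 and trap-2 rose, and nlp-24 did not pass the test. The intestinal actin gene act-5 averaged 1266 CPM at 0 h, 153 CPM at 12 h and 91.3 CPM at 24 h, a difference of steps of 2.301 ± 0.27. The neuropeptide-like gene nlp-24 averaged 470 CPM at 0 h, 15.1 CPM at 12 h and 9.49 CPM at 24 h (4.28 ± 0.48). The gene ctsa-3.1 had a log2 change of -3.49 from 0 h to 12 h and of 0.55 from 12 h to 24 h. By contrast flp-27 and cct-4 had steps of like size, with differences of 0.03 ± 0.18 and -0.01 ± 0.14. For gmap-1 the means were 192 CPM at 0 h, 33.7 CPM at 12 h and 24.6 CPM at 24 h (2.05 ± 0.20), and for trap-2 they were 107 CPM at 0 h, 50.2 CPM at 12 h and 61.2 CPM at 24 h (1.37 ± 0.16). The summed flp level was 1489 CPM at 0 h, 2979 CPM at 12 h, 3949 CPM at 24 h and 4634 CPM at 48 h. The summed vha level was 11484 CPM at 0 h, 7058 CPM at 12 h, 5842 CPM at 24 h and 5194 CPM at 48 h.

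**Figure D4:**
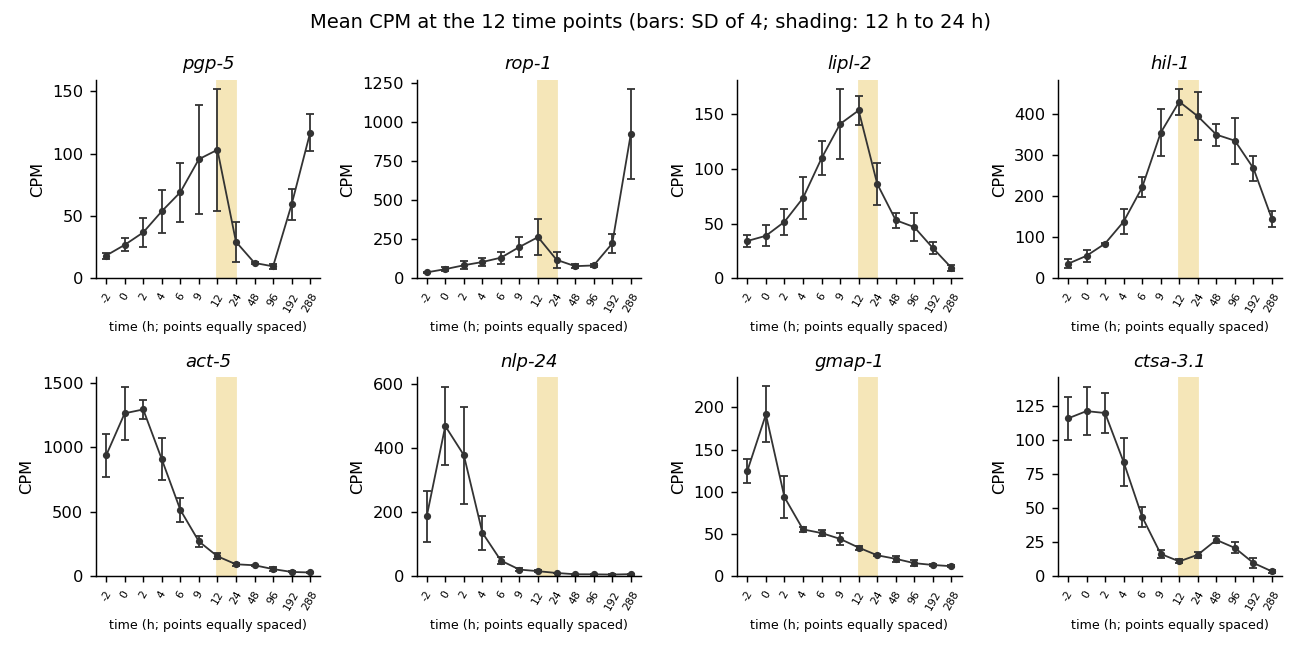
Mean CPM (y axis, from 0) of 8 genes at the 12 time points (x axis, hours, equally spaced), with bars for the SD of 4 libraries and shading from 12 h to 24 h. All 4 genes of the top row are higher at 12 h than at 0 h, and 3 of them fell by 24 h; pgp-5 and rop-1 are high again at 288 h. The bottom row fell from 0 h to 12 h.

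Steps that share no library with 24 h against 12 h were set beside it. In 96 h against 48 h 1354 genes changed (7.85%). Of the 2439 genes called between 12 h and 24 h, 471 were called there in the same direction, which is 19.3% of them and 34.8% of the 1354, and 46 in the opposite direction. In 9 h against 0 h 7385 genes changed (42.8%). Of the 2439 genes, 58.02% were called there in the same direction and 13.5% in the opposite one, and the opposite direction was taken by 20.05% of the genes that were lower at 24 h and 6.19% of those that were higher. These shares describe the lists and were not tested.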

How the data were processed

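Single-end mRNA-seq reads of whole L1 larvae were aligned with Bowtie and counted per gene with HTSeq by the authors on the WS210 genome, and the deposited values are raw counts per gene. Summary entries of the counter, 21.1% to 26.6% of the values in the 8 libraries, and 22 rRNA entries were left out of library sizes and tests. Strand handling in the counting is not given in the sources used here, so overlapping and near-identical genes are uncertain.

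All 48 libraries of 12 time points entered 1 edgeR 4.0.16 quasi-likelihood fit (R 4.3.3) with time and replicate number as terms and TMM scaling, on 17257 genes with over 1 CPM in at least 4 libraries. Fold changes are log2 of 24 h over 12 h. Their SE is the absolute log2 fold change over the square root of the F value of that fit. Adjusted p-values are Benjamini-Hochberg over all tested genes, with 0.05 as the threshold. The direction within a replicate was taken from log2(CPM + 0.5). The replicate number served as a block because the study drew the time points of most replicates from a shared culture. Deviations of same-numbered 24 h and 12 h libraries from their time point means correlated at 0.27, 0.41, 0.31 and 0.12 in replicates 1, 5, 6 and 8, each number matching itself best. Names came from RefSeq for 16943 tested genes and from Ensembl alone for 21.

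Genes were named by rule: the 12 largest rises and falls and the 5 largest in CPM among genes of at least 10 CPM changed the same way in every replicate, up to 4 called members and the member of highest mean CPM of each of 48 gene lists and 8 marker lists, 9 regulators, and 5 genes in each direction for the difference of steps. The genes for the difference of steps also had to reach 10 CPM and to move the same way from 12 h to 24 h in every replicate. Other members were named after their values were seen, to complete a small set or to give an exception. Members and lists were chosen with earlier results of these data known. DESeq2 1.42.0, other scalings and filters, the 8 libraries alone, no block and leaving out replicates were tried as alternatives.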

Additional observations from a re-analysis of the deposited data

Results flagged for a closer look

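The later step differed from the earlier one in 3896 genes by the contrast of the 2 steps (edgeR, adjusted p under 0.05). Among the genes named for it, the log2 difference of steps was -3.66 in pgp-5, -3.48 in oac-50, -3.24 in rop-1, -3.102 in hil-1 and -2.84 in lipl-2, and it was 4.28 in nlp-24, 4.05 in ctsa-3.1, 2.301 in act-5, 2.05 in gmap-1 and 1.37 in trap-2.

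In 15 of 266 sets of 4 libraries, made of the 131 named genes, the rRNA share and the library total at each time, 1 library stood apart from the other 3 by Dixon's test, and chance alone gives about 1 in 20. At 24 h, replicate 1 was high in cyb-3 (36.2 CPM) and abu-7 (1.47 CPM). Replicate 6 was high in daf-16 (490.7 CPM) and dod-19 (14.7 CPM) and low in pqn-59 (2081 CPM). Replicate 8 was high in daf-28 (25.1 CPM) and egl-21 (1845 CPM), and replicate 5 was low in dbd-13 (0.964 CPM).

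At 12 h, replicate 1 was high in lin-35 (26.7 CPM) and low in far-8 (90.98 CPM) and phat-7 (560.9 CPM). Replicate 6 was high in abu-8 (70.1 CPM) and nas-8 (14.04 CPM), replicate 5 in egl-3 (1736 CPM) and replicate 8 in ctsa-3.1 (12.9 CPM).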

How the results depend on the processing

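Of 2439 calls, 1572 (746 higher, 826 lower) were made without the replicate block, all of them among the 2439, and 3778 (1752 higher, 2026 lower) with the 8 libraries fitted alone. Leaving out a replicate gave 1567 to 1865 calls, 714 to 852 higher and 853 to 1040 lower, with the fewest without replicate 6. Leaving out only the 24 h library of replicate 8, the one rich in rRNA, gave 2047, 944 higher and 1103 lower. Without scaling factors 732 genes were higher and 2339 lower, and without the low-count filter 866 and 1582. With genes of at least 10 CPM, 171 in place of 574 changed at least 2-fold. Calls within the gene lists numbered 471, against 296 without the block and 764 with the 8 libraries alone. The count of genes whose steps differed moved by less than 1.5 times under every alternative run for it.

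Of 1952 comparisons for 131 named genes, 1826 kept direction and side of the threshold, 101 lost the call, 18 of them without the block, 8 gained it and 17 changed sign. The sign changes were in regulators that did not pass the test. Without scaling factors the log2 fold changes were -0.0905 in lin-35, -0.0941 in hpl-2, -0.0638 in daf-16 and -0.0333 in skn-1. Without the low-count filter they were -0.0259 in lin-35, -0.0343 in hpl-2 and -0.00332 in daf-16. With the 8 libraries alone hpl-2 had -0.00942, and with upper-quartile scaling daf-18 had 0.00844. When libraries were left out, values ran from -0.0723 to 0.1194 in lin-35, -0.1004 to 0.0945 in hpl-2, -0.0888 to 0.0111 in ama-1, -0.0745 to 0.0578 in daf-18 and -0.0753 to 0.00642 in hlh-30. The cause was not tested. The planned count of promoter motifs was not run.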
